A study of Mus musculus with 7 samples.

Results

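Sall4, Pou5f1, Nanog, Lin28a, Lin28b, Igf2bp1, Igf2bp2, Igf2bp3, Hmga1 and Hmga2 are genes of early embryonic and fetal cells that many cancers turn back on. These 10 genes were chosen by name, out of 55423 features in a table of read counts per gene, and their values in this comparison were not part of the rule. Of the 10, 8 were tested, since they reached 5 reads in some tumour (the minimum for at least 1 library). Pou5f1 and Nanog did not reach it and are given as counts.

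Bulk RNA, depleted of ribosomal RNA, was sequenced from skin tumours of 2 mouse genotypes. In the Ivl:BRAFV600E mice, tamoxifen applied to the skin activates Ivl-CreERT2, a Cre recombinase under the involucrin promoter, and so turns on the BRAF oncogene V600E in the IVL+ population, whose cells lie mostly in the layers above the basal layer. The Ivl:BRAFV600E-SOX2LSL mice carry the same Cre and BRAF alleles and in addition a Rosa26 allele with a LoxP-stop-LoxP cassette, SOX2, an internal ribosome entry site and eGFP. Both groups therefore share the oncogene, and the comparison asks which transcripts differ when SOX2 is forced on beside it. The labels give induction between 7 and 10 weeks of age and collection at the clinical endpoint, so time since induction was not held fixed and cannot be told apart from genotype. The Ivl:BRAFV600E tumours are called A (female), B (female) and C (male), and the Ivl:BRAFV600E-SOX2LSL tumours D (male), E (male) and F (female), where the letters only name them. Mice were on a C57BL/6J background.

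The genes fall into 4 roles. SALL4, POU5F1 (OCT4) and NANOG are transcription factors that keep embryonic stem cells undifferentiated, in a network of which SOX2 is a core member, and SALL4 represses genes through the NuRD histone deacetylase complex. LIN28A and LIN28B bind precursors of the let-7 microRNAs and block their processing. The IGF2BP proteins bind and stabilise messenger RNAs such as those of Igf2, Myc and Actb. HMGA1 and HMGA2 are small proteins that bind AT-rich DNA and open chromatin. Let-7 microRNAs accumulate as tissues mature and silence Lin28a, Lin28b, the Igf2bp genes and Hmga2, through a short sequence in their transcripts. In adult skin most of these genes are low, apart from Hmga1, which dividing cells commonly express.

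That sequence is shown first, because 8 of the 10 genes hold at least 1 match to it. Among the RefSeq (GRCm38.p6) entries searched, 13 mouse loci, with 11 names, have a mature microRNA with the seed of let-7a. The count is not complete, since Mirlet7a-2, a let-7a gene present in the read counts, is not among these entries. The 5 below are printed 5′ to 3′ with the seed, bases 2 to 8, in capitals, and they differ from one another only outside it, in the bases in lower case.
let-7a-5p: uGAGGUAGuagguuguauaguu
let-7b-5p: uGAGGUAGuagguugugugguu
let-7d-5p: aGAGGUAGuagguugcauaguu
let-7g-5p: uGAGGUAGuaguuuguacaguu
miR-98-5p: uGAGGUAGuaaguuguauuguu

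The complement of the seed, CTACCTC on the DNA strand of the transcript, was searched in the longest annotated 3′ untranslated region of each protein-coding gene (GENCODE M21, GRCm38; transcript strand only). Of 20957 genes, 8.97% held it at least once, at 0.0698 matches per kb over all of them. Among the members, Lin28b, Igf2bp1 and Hmga2 held 4 matches each, Lin28a held 2, and Sall4, Igf2bp2, Igf2bp3 and Hmga1 held 1 each, while Pou5f1 and Nanog held none. Only 12 genes of the 20957 held 4 or more. Length accounts for part of such counts, so each gene was set beside those whose region is within 20% of its length. Of such genes, 0.0898% held as many matches as Hmga2, 0.159% as many as Lin28b and 0.178% as many as Igf2bp1, against 12.0% for Igf2bp2. One site each of 4 members is printed below on the transcript strand, with the match in capitals. A match is a description of the letters and does not show binding.
Lin28b, chr10:45381022-45381044, minus strand: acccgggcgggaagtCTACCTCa
Hmga2, chr10:120364224-120364246, minus strand: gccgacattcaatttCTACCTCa
Igf2bp2, chr16:22059473-22059495, minus strand: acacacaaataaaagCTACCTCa
Igf2bp3, chr6:49086787-49086809, minus strand: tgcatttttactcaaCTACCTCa

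**Figure D1:**
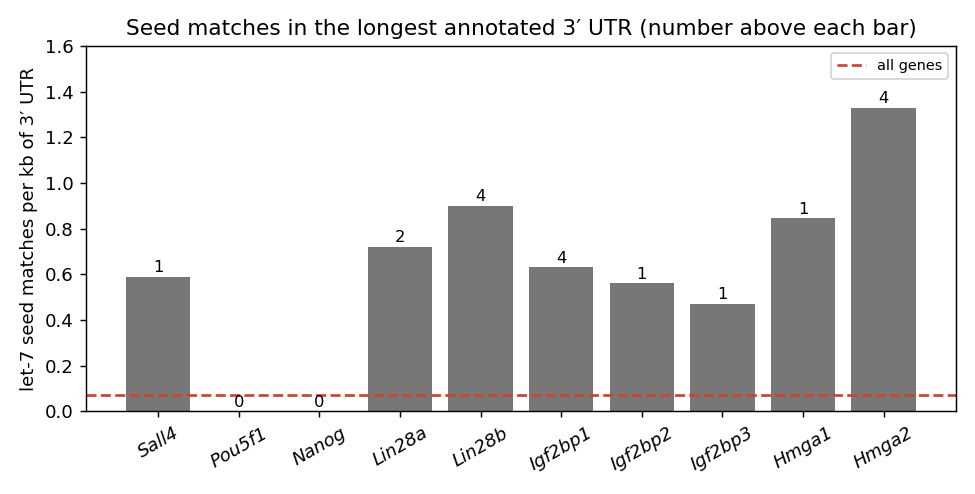
Matches to the let-7 seed per kb of the longest annotated 3′ untranslated region of each member (bars), with the number of matches above each bar; the dashed line is the rate over all genes, 0.0698 per kb. Hmga2 has the highest rate of the 10, 1.33 per kb, and Pou5f1 and Nanog have no match.

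The libraries held between 23565432 and 31152826 counts on genes, and 3 counts, the floor used here, correspond to 0.0839 to 0.143 CPM (read counts scaled to library size with TMM factors). Sox2 had between 0.238 and 0.716 CPM in the Ivl:BRAFV600E tumours and between 155 and 182 in the Ivl:BRAFV600E-SOX2LSL tumours, and the EGFP row had 0 counts in the former and 110 to 139 CPM in the latter, so every library carried the transcripts its label gives. Reads of the transgene and of endogenous Sox2 are added in the Sox2 row. Keratinocyte genes marked all 6 libraries as epidermal, with Krt14 between 6530 and 31200 CPM. Tumour D stood apart, however, with a TMM factor of 1.26 against 0.824 to 1.07 in the other tumours, and of the genes with a mean of at least 1 CPM it held 188, 1.30%, at least 4-fold above the next tumour, against 0.00693% to 0.152% in each of the other 5. The 4-fold limit was chosen after the values were seen. The fold change of each tested member is therefore given with and without tumour D, as are the calls of each list where they differ. In bulk tissue, fewer cells of a type and less RNA per cell cannot be told apart.

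No member passed the test. Log2 fold changes below are Ivl:BRAFV600E-SOX2LSL minus Ivl:BRAFV600E, given ± their standard error. The edgeR quasi-likelihood test with Benjamini-Hochberg adjustment over all 24433 tested genes called 3.90% of them (adjusted p below 0.05; 2.39% higher and 1.51% lower in the Ivl:BRAFV600E-SOX2LSL tumours) and 0 of the 8 tested members. At an unadjusted p below 0.05 there were 3 members, against 25.7% of all tested genes. DESeq2 called 2 members, Sall4 and Igf2bp1, against 18.2% of the genes to which it gave an adjusted p, and limma with voom called 0 members, against 8.77%. Lin28a and Hmga2 were given no adjusted p by DESeq2. In 2 of the 8, again Sall4 and Igf2bp1, the groups did not overlap, which held for 34.2% of all tested genes. For 1 gene, the smallest p of an exact permutation test (two-sided) of 3 tumours against 3 is 0.1. Each library came from a different mouse, so the spread is that between animals.

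Part of the set was set apart by 1 tumour. Sall4, Lin28b, Igf2bp2 and Hmga2 were each highest in tumour D, at 13.3, 8.29, 8.55 and 8.39 times the level of the next tumour. These are 4 of the 7 members with a mean of at least 1 CPM, beside the 1.30% of all such genes that stood out in tumour D by this measure. Igf2bp1, Igf2bp3 and Hmga1 did not stand out there, so the pattern holds for 1 gene of each role and not for a whole family. Sall4 and Lin28b reach that mean only through tumour D, the members were proposed with results of these data known, and no test of this share was made, so it supports nothing further.

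**Figure D2:**
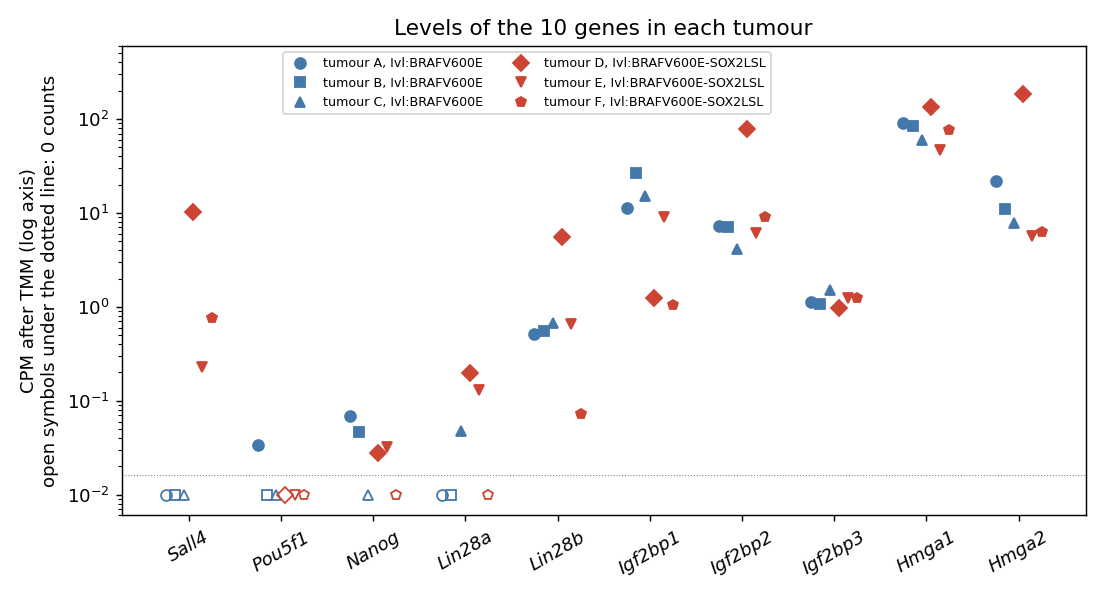
CPM after TMM (log axis) of the 10 genes in each tumour, with Ivl:BRAFV600E tumours A to C in blue and Ivl:BRAFV600E-SOX2LSL tumours D to F in red; open symbols are libraries with 0 counts, and each symbol is 1 tumour. Tumour D is 13.3, 8.29, 8.55 and 8.39 times above the next tumour for Sall4, Lin28b, Igf2bp2 and Hmga2.

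Among the transcription factors, Sall4 (ENSMUSG00000027547, chromosome 2 of GRCm38, 168748332 to 168767943, minus strand) was the 1 member absent from the reads of every Ivl:BRAFV600E tumour and present in those of every Ivl:BRAFV600E-SOX2LSL tumour. It had 0 counts in tumours A, B and C, and 361, 7 and 21 counts in tumours D, E and F. In CPM these were 10.1 in D, 0.227 in E and 0.758 in F, so the groups did not overlap, but D was 13.3 times above F and E was lower still. Against the floor of 3 counts in the shallowest Ivl:BRAFV600E library, the Ivl:BRAFV600E-SOX2LSL mean (3.70 ± 5.55 CPM, SD, n = 3) was at least 25.9-fold higher, the mean of E and F at least 3.46-fold, and tumour E alone at least 1.59-fold. The edgeR log2 fold change, which for a gene at 0 depends on the prior count of 2, was 5.71 ± 1.59 (adjusted p = 0.11), and 2.89 ± 0.64 (adjusted p = 0.0727) without tumour D. Sall4 passed with DESeq2 (adjusted p = 0.00522) and with edgeR when no minimum was set on counts (adjusted p = 0.0468). An exact permutation test gave p = 0.1, the smallest it can give. Of the runs of 100 bases in its transcripts (words), 5.77% occur reversed in those of an antisense gene, Gm14261. Whether strand was used in counting is not stated, and Gm14261 itself had 0 to 7 counts.

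Pou5f1 and Nanog, the other members of the core embryonic stem cell network, were at the edge of detection. Pou5f1 (chromosome 17, 35506018 to 35510772, plus strand) had 1 count in tumour A and 0 in the other 5. Nanog (chromosome 6, 122707489 to 122714633, plus strand) had 2, 1 and 0 counts in A, B and C and 1, 1 and 0 in D, E and F. Every one of these libraries was at or below the floor of 3 counts, so neither gene was detectable in tumours with 155 to 182 CPM of Sox2, or in those without it. The Ivl:BRAFV600E-SOX2LSL tumours thus held Sall4 reads beside no detectable Pou5f1 or Nanog.

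The wider pluripotency network gave 1 call. Of 31 further genes of this network, 16 passed the minimum on counts, and 1 rose and 0 fell by the edgeR test, with a median log2 fold change of 0.26 beside 0.04 over all tested genes. Without tumour D, 14 were tested, 1 rose, 1 fell and the median was -0.13. The gene that rose was Dnmt3b, which methylates DNA de novo in the embryo. It had 2.56, 2.36 and 3.18 CPM in A, B and C and 6.41, 6.19 and 6.03 in D, E and F, a gap with no overlap and little spread within either group (log2 fold change 1.18 ± 0.21, edgeR adjusted p = 0.035). Dnmt3b is therefore a gene of this network in which tumour D did not stand out. It kept its change without tumour D (1.16 ± 0.23, adjusted p = 0.0342). Zfp42, Dppa4, Fgf4, Nr0b1, Otx2, L1td1 and Tcl1, all defining genes of embryonic stem cells or of the early embryo, had 0 counts in all 6 libraries.

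Klf4, which serves as a pluripotency factor and also drives terminal differentiation of keratinocytes, was lower in tumour D than in any other. Its levels were 1200, 1360 and 1040 CPM in A, B and C, and 231, 755 and 707 in D, E and F, with no overlap between the groups (log2 fold change -1.09 ± 0.42, edgeR adjusted p = 0.16). Without tumour D it fell by 0.72 (adjusted p = 0.0421).

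The 13 NuRD subunits with which SALL4 acts were expressed in all tumours, with 0 called, a median log2 fold change of 0.06 and a summed level of 1320 to 1470 CPM. Chd3, a helicase of the complex, was at 145 CPM in tumour D against 35.9 to 56.6 in the other 5, and its log2 fold change was 0.97 ± 0.41 with tumour D and 0.29 ± 0.15 without it. Of the paralogues, Sall1 had 0.75, 1.71 and 0.38 CPM in A, B and C and 1.26, 2.92 and 5.13 in D, E and F, and was thus highest in F, not in D. Sall2 was highest in D, at 16.8 CPM against 3.94 to 6.51, with a log2 fold change of 1.16 ± 0.41 that became 0.51 ± 0.20 without D. Over 18 tested paralogues and relatives of the members, 0 passed the test and the median was 0.44. Without tumour D, 1 of the 18 rose, the nucleosome-binding protein gene Hmgn1 (0.54 ± 0.12, edgeR adjusted p = 0.0446).

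The LIN28 pair was low throughout. Lin28a (chromosome 4, 134003330 to 134018841, minus strand) had 0, 0 and 1 counts in A, B and C and 7, 4 and 0 in D, E and F, above the floor in 2 libraries of 1 group, yet with overlap (log2 fold change 1.07 ± 0.65, edgeR adjusted p = 0.337). It did not pass the minimum on counts without tumour D. Lin28b (chromosome 10, 45376620 to 45486395, minus strand) had 0.512, 0.554 and 0.665 CPM in A, B and C. In the other group it had 5.51 CPM in D, 0.648 in E and 0.0722 in F, where its 2 counts were under the floor, so that group held both the highest and the lowest library of the 6. The log2 fold change was 1.74 ± 1.12 (edgeR adjusted p = 0.364), and it reversed to -0.56 ± 0.68 (adjusted p = 0.662) without tumour D. The direction for Lin28b thus rested on 197 counts in that tumour, against 2 to 20 in the others.

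The machinery through which LIN28 and let-7 act gave no call. Of 17 genes that process microRNAs, load them or destroy let-7 precursors, 0 passed the test and the median log2 fold change was 0.12. Tut4 and Tut7, the uridylyl transferases that LIN28A recruits, had 10.8 to 20.1 and 107 to 158 CPM, with Tut4 highest in tumour D and Tut7 lowest there. Dis3l2, the exonuclease that degrades uridylated precursors, had 24.1, 25.5 and 23.9 CPM in A, B and C and 17.5, 17.1 and 19.9 in D, E and F. These ranges were apart, but the change missed the threshold (log2 fold change -0.43 ± 0.13, edgeR adjusted p = 0.105). The mature let-7 microRNAs could not be read from these libraries. The 12 genes of their hairpins in the table summed to 0 to 11 counts per tumour.

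Igf2bp1, Igf2bp2 and Igf2bp3, whose proteins are close relatives, showed 3 different profiles. Igf2bp1 (ENSMUSG00000013415, chromosome 11, 95957163 to 96005940, minus strand) had 11.3, 26.5 and 15.1 CPM in A, B and C and 1.23, 9.07 and 1.05 in D, E and F. All Ivl:BRAFV600E tumours lay above all Ivl:BRAFV600E-SOX2LSL tumours, and E lay close under A while D and F were far lower. The means were 17.6 ± 7.92 and 3.78 ± 4.58 CPM (SD, n = 3 each), which gave -2.20 ± 0.84 on the log2 scale with an edgeR adjusted p of 0.159. DESeq2 called it (-2.23, adjusted p = 0.0255), as did edgeR without tumour E (-3.87, adjusted p = 0.0298), while without tumour D the value was -1.78 (adjusted p = 0.235). The exact permutation p was 0.1, again the smallest possible. Igf2bp1 was thus lower in the Ivl:BRAFV600E-SOX2LSL tumours both with and without tumour D, although edgeR called neither.

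Igf2bp2 (ENSMUSG00000033581, chromosome 16, 22059009 to 22163299, minus strand) followed tumour D. It had 7.30, 7.02 and 4.09 CPM in A, B and C, and 77.8 in D, 6.12 in E and 9.10 in F. Without the 2782 counts of tumour D the ranges of the groups overlapped, with F above A to C and E among them, and the log2 fold change went from 2.32 ± 0.94 (edgeR adjusted p = 0.176) to 0.30 ± 0.31 (adjusted p = 0.598). Igf2bp3 (ENSMUSG00000029814, chromosome 6, 49085223 to 49214957, minus strand) was low in every tumour, at 1.13, 1.06 and 1.52 CPM in A, B and C and 0.979, 1.23 and 1.23 in D, E and F. Its log2 fold change was -0.10 ± 0.30 (edgeR adjusted p = 0.858). The exons of Igf2bp3 overlap those of Malsu1 on the other strand over 17.5% of its words of 100 bases, and Malsu1 had 6.32 to 9.28 CPM, so reads of the overlap are uncertain.

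In the same tumours, 8 transcripts known to be bound by IGF2BP proteins gave 0 calls and a median log2 fold change of 0.50. H19, an imprinted fetal RNA, had 3.68, 3.19 and 5.18 CPM in A, B and C, and 147 in D, 25.3 in E and 2.67 in F. It was high in 2 of the 3 Ivl:BRAFV600E-SOX2LSL tumours and lowest of all 6 in the third of that group (log2 fold change 3.84 ± 1.22, edgeR adjusted p = 0.113; 1.78 ± 0.76 and adjusted p = 0.213 without tumour D). Igf2 itself was nearly silent, at 0.0924 to 0.783 CPM with its highest value in D. Myc had 97.6, 83.0 and 67.7 CPM in A, B and C and 68.8, 58.9 and 67.9 in D, E and F, so the ranges overlapped (edgeR adjusted p = 0.232).

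Per length of exon, Hmga1 was the most abundant of the 10 genes in every tumour, between 22 and 63.3 RPKM (CPM per kb of exon, computed here). In the Ivl:BRAFV600E group it was followed by Hmga2 (mean 2.00 RPKM) and Igf2bp1 (1.82), whose values overlapped, then by Igf2bp2 (0.829), Igf2bp3 (0.152) and Lin28b (0.0637). In the Ivl:BRAFV600E-SOX2LSL group the means ran Hmga1 (40.3 RPKM), Hmga2 (9.59) and Igf2bp2 (4.19), an order that tumour D set. In tumours E and F, Hmga2 had 0.832 and 0.928 RPKM and Igf2bp2 had 0.827 and 1.23, which is not a difference beyond the spread.

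Hmga1 (ENSMUSG00000046711, chromosome 17, 27556497 to 27563674, plus strand) had 91.7, 84.3 and 60.2 CPM in A, B and C and 134, 46.7 and 76.0 in D, E and F. The Ivl:BRAFV600E-SOX2LSL group held both the highest and the lowest value, and the log2 fold change of 0.12 ± 0.37 (edgeR adjusted p = 0.862) became -0.36 (adjusted p = 0.432) without tumour D. Its count is uncertain, since 40.1% of its words of 100 bases also occur in Hmga1b, a near-identical copy. Hmga1b was at 30.3 CPM in tumour E, the tumour in which Hmga1 was lowest, and at 5.70 to 10.8 in the other 5. How reads that match both were counted is not stated.

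Hmga2 (ENSMUSG00000056758, chromosome 10, 120361275 to 120476469, minus strand) changed direction with tumour D. It had 21.8, 11 and 7.74 CPM in A, B and C, and 183 in D, 5.64 in E and 6.28 in F. With D removed, both remaining Ivl:BRAFV600E-SOX2LSL tumours lay below all Ivl:BRAFV600E tumours. The log2 fold change was 2.25 ± 1.30 (edgeR adjusted p = 0.316) with all 6 tumours and -1.18 ± 0.42 (adjusted p = 0.153) without D, and neither passed. In tumour D Hmga2 held 6535 counts, against 163 to 639 in the others, so counting error is small beside this gap. The genes annotated on the other strand of Hmga2, 1700006J14Rik and 9230105E05Rik, were also highest in tumour D, at 2.80 and 2.60 CPM against at most 0.477 and 0.356 elsewhere. Only 0.65% of the words of Hmga2 are shared with an antisense transcript.

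**Figure D3:**
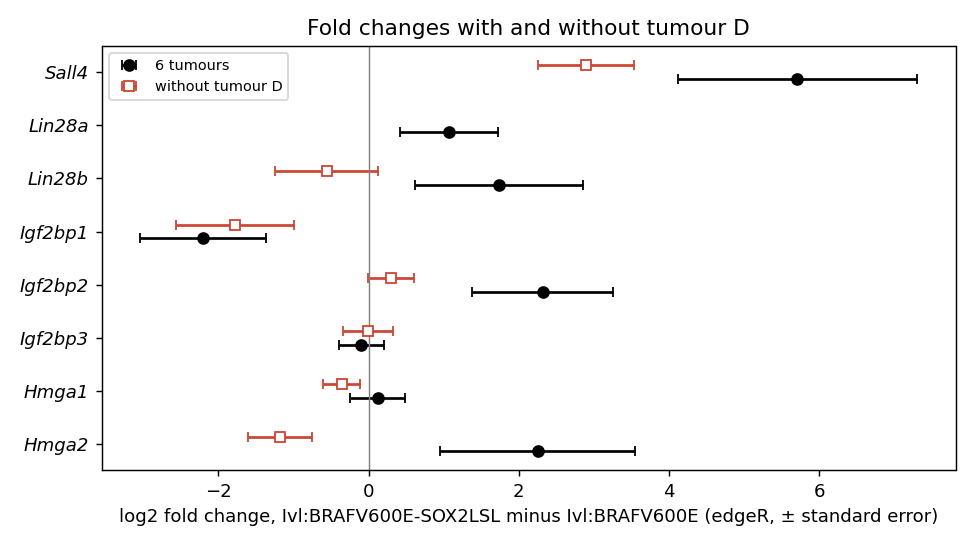
Log2 fold change of the 8 tested genes, Ivl:BRAFV600E-SOX2LSL minus Ivl:BRAFV600E, from the edgeR fit, with bars of 1 standard error, for all 6 tumours (black circles) and without tumour D (open red squares; Lin28a did not pass the minimum on counts there). Lin28b, Hmga1 and Hmga2 change sign without tumour D, and Igf2bp2 goes from 2.32 to 0.30.

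Because Lin28b, Igf2bp2 and Hmga2 were all highest in tumour D, their promoters (RefSeq, GRCm38.p6, 250 bases before to 50 after the start) were searched for ACAATG and ACAAAG on both strands, the core letters bound by SOX factors; no stretch can match both. Of 32851 promoters, 28.6% held at least one. The table had promoters for 8 members (not Sall4 or Igf2bp1), and 5 of their 11 promoters held a match. These belong to Lin28a, Nanog, Hmga2 and a downstream start of Pou5f1. The Nanog promoters overlap and hold the same match, so the share of 11 counts it more than once. Hmga2 held 1, as its complement, and Lin28b and Igf2bp2 held none. The 3 promoters are shown because they differ widely in composition, with G and C at 57.7%, 39.0% and 76.7% of bases for Hmga2, Lin28b and Igf2bp2, against a median of 52.7% over all promoters. They hold 12, 8 and 47 CG pairs. The Lin28b stretch lies inside the annotated gene, which begins at 45486395 on the minus strand, so it belongs to an internal start. The outer start of Lin28b was not searched. The match is in capitals, and sequences run in the direction of the gene.
Hmga2, chr10:120476420-120476719, minus strand: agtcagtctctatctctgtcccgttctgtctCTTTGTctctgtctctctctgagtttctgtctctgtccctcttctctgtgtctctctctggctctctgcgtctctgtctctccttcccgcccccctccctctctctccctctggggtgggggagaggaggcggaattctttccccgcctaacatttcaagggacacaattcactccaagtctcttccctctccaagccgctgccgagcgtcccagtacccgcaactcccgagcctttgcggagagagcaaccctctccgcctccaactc
Lin28b, chr10:45470152-45470451, minus strand: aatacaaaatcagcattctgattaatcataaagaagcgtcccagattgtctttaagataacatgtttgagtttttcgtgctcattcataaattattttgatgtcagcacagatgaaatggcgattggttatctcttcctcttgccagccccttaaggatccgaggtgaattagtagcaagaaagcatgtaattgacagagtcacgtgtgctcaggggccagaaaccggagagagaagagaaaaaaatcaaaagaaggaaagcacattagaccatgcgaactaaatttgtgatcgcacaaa
Igf2bp2, chr16:22163250-22163549, minus strand: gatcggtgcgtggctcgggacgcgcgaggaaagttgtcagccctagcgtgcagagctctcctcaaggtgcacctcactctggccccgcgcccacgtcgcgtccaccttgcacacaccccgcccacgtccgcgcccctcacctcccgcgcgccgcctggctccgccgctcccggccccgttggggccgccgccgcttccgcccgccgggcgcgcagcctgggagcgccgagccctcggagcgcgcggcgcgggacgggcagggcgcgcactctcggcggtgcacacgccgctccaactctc

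Other genes that let-7 is known to repress, 18 of them and all tested, gave 1 higher call, 0 lower and a median log2 fold change of 0.32. Ccnd2, a cyclin of G1 phase, had 48.4, 27.9 and 57.2 CPM in A, B and C and 251, 126 and 152 in D, E and F, with no overlap (log2 fold change 1.98 ± 0.35, edgeR adjusted p = 0.0322; 1.64 and adjusted p = 0.0204 without D). Thbs1 was highest in D at 512 CPM, against 177 and 198 in E and F and 108 to 122 in A to C, and passed the edgeR test without tumour D (0.69, adjusted p = 0.0177) but not with it (1.35, adjusted p = 0.0982). Nras and Cdk6 had log2 fold changes of 0.08 and -0.10. By number of seed matches, the median log2 fold change was 0.10 over 14507 tested genes with none and 0.15 over 1402 with 1. It was 0.04 over 168 genes with 2 and 0.10 over 15 with 3. Without tumour D these medians were, in the same order, 0.04, 0.08, 0.01 and 0.10. These medians lay close together. The 12 genes with 4 or more, of which 3 are members, had a median of 0.90, and of 0.26 without tumour D.

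Proliferation genes, among which Mki67 and Top2a mark dividing cells, did not separate tumour D. Of the 15, 0 passed the test, and their summed level was 807 to 1190 CPM, with D at 991. Mki67 had 505, 425 and 323 CPM in A, B and C and 302, 395 and 373 in D, E and F.

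The cell types in the tumours differed between the libraries, and those that moved with tumour D are given here. Differentiated keratinocyte markers (7 genes) summed to 78100, 91600 and 83900 CPM in A, B and C and to 2680 in D, 18800 in E and 26200 in F, so tumour D was the lowest by far. Krt1, Krt10 and Flg made up most of these sums. Ivl, also on this list, did not follow them, at 208, 40.4 and 76.4 CPM in A, B and C and 72.5, 22 and 114 in D, E and F. The 7 genes gave 1 lower call, Sbsn, and 5 lower calls without tumour D. Krt10, the keratin of the suprabasal layers, was at 425 CPM in D against 3990 and 7210 in E and F and 28900 to 36300 in A to C. Basal markers summed to 13000 CPM in D and 17800 to 36000 in the others, with Krt14 the largest share of the sum and Trp63 at 261 to 321 CPM throughout. Other genes of this list went the other way, since Col17a1, Itga6, Itgb4 and Lamb3 were highest in D, at 1620, 896, 1010 and 239 CPM. The median log2 fold change of the 8 was 0.73, with 1 higher call (Lamb3, edgeR adjusted p = 0.0491), and without tumour D 2 were higher, Lamb3 and Itgb4. The part of keratinocyte composition in the levels of Sall4, Lin28b, Igf2bp2 and Hmga2 was not tested.

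Fibroblast markers (8 genes, 6 of them highest in D, 0 called) summed to 8350 CPM in D and 775 to 5120 in the others. Adipocyte markers (5 genes, 0 called) summed to 16.7 to 43.7 CPM in A to C and 10.9 to 58.1 in D to F and were mixed, since Adipoq, Plin1 and Cidec were at 4.2, 8.37 and 8.14 CPM in D and at 0 to 0.285 in the other tumours, while Fabp4, at 10.7 to 43.7 CPM, was highest in A. Myeloid markers summed to 241 to 768 CPM in A to C and 630 to 1220 in D to F. S100a8, the largest part of this sum in every tumour but D, was lowest in D, at 168 CPM against 175 to 971. Of the 8 myeloid markers, 6 were highest in D, and Ptprc and Csf1r passed the test. Their part in the values of tumour D was not tested either. Skeletal muscle markers, 14 of 16 called higher (15 without tumour D), summed to 3260, 3760 and 856 CPM in D, E and F and to 10.8 to 26.3 in A to C. The muscle mean was also fitted as a covariate (below), but genotype explains 94.2% of its variance. The part of muscle content in the levels of the members can thus hardly be told apart from genotype. Satellite cell and myoblast markers, 2 of 7 called higher (Chrna1 and Myf6), summed to 5.32, 11.7 and 2.60 CPM in D, E and F, highest in E. The markers of germ cells, which use Sall4, Lin28a and Pou5f1, were mixed. Mael and Nanos2 had 0 counts in every library, and Ddx4 and Dazl were at 0.0722 CPM at most. Of 11 markers 6 were tested and 0 called, and none was highest in D. They summed to 2.96 to 6.75 CPM in A to C and 5.09 to 11.3 in D to F. Most of the latter was Zbtb16, at 4.14, 3.95 and 9.57 CPM in D, E and F against 0.231 to 2.57 in A to C. Dnd1 and Nanos3 went the other way, at 1.02 to 1.47 CPM in A to C and 0.196 to 0.758 in D to F. Neuronal markers gave 1 call of 4 tested, Nefl, at 9.76 CPM in D, 2.75 in E and 1.55 in F against at most 0.0462 in the other group. Without tumour D, 2 of the 4 were called, Nefl (edgeR adjusted p = 0.00805) and Stmn2 (2.50 ± 0.39, adjusted p = 0.017), and Stmn2 was highest in E at 13.1 CPM. Tubb3, the largest part of this list in every tumour, was instead lowest in D. It had 75.3, 93.3 and 94 CPM in A, B and C and 15.2, 96.7 and 54.1 in D, E and F. The neuronal sums were 78.1 to 95.7 CPM in A to C and 26.7, 113 and 64.2 in D, E and F. The endothelial (7 tested), lymphoid (7), melanocyte (6) and hair follicle (9) lists gave 0 calls, with endothelial sums of 157 to 195 CPM. Without tumour D the hair follicle list gave 1 lower call, Sox9 (-0.84 ± 0.15, edgeR adjusted p = 0.0248).

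**Figure D4:**
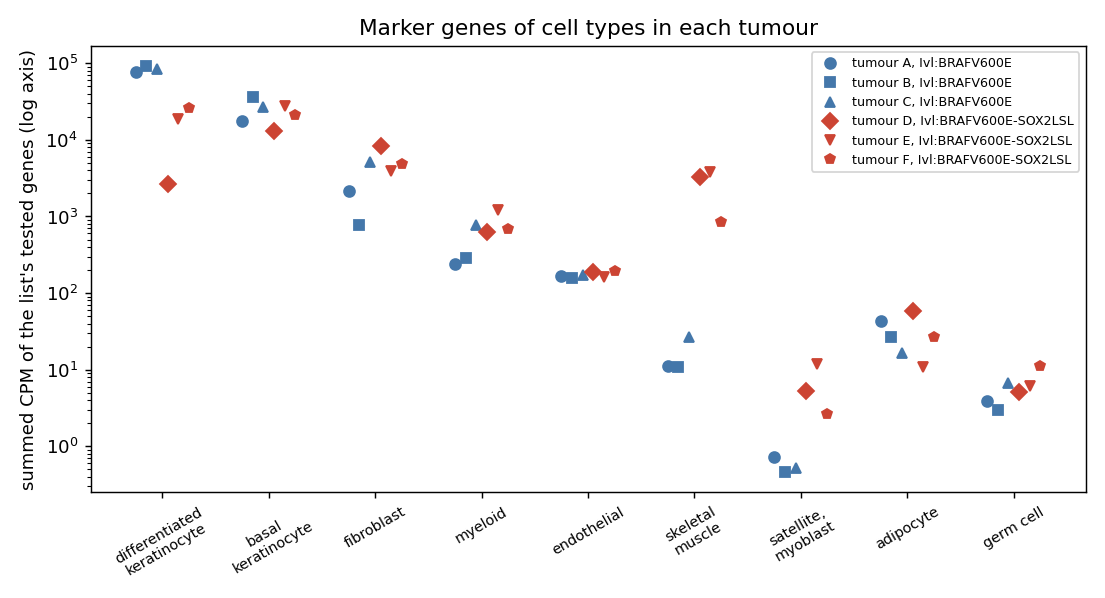
Summed CPM (log axis) of the tested genes of 9 lists of cell type markers in each tumour, Ivl:BRAFV600E in blue and Ivl:BRAFV600E-SOX2LSL in red, 1 symbol per tumour. Tumour D is lowest for differentiated keratinocyte markers (2680 CPM) and highest for fibroblast markers (8350 CPM), and is next to tumour E for skeletal muscle (3260 and 3760 CPM).

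The genes with the profile closest to each member were found among 14429 other tested genes with a mean of at least 1 CPM, by the root mean square difference of log2 CPM centred on each gene's mean over the 6 tumours. For Sall4 these were Aass (difference 0.23), Pls1 (0.25) and Adrb1 (0.35), and Aass, an enzyme of lysine breakdown, had 0 counts in A to C and 7.86, 0.324 and 0.686 CPM in D, E and F. For Igf2bp2 they were Cd93 (0.25), Spry4 (0.26) and Asah1 (0.28). Spry4, a feedback inhibitor of the ERK pathway, was at 72.4 CPM in D and 4.28 to 8.78 elsewhere. For Hmga2 they were Hoxb7 (0.48), Bmp8b (0.59) and Kcnn4 (0.66), and for Lin28b Igha (0.58), Fcrls (0.65) and Tnfsf9 (0.66), with larger differences and so a looser likeness. Igf2bp1 was nearest to Gm48521 (0.44), Tbx3 (0.54) and Gm5724 (0.55). Tbx3, a T-box factor also on the pluripotency list, had 34.7, 81.4 and 47.3 CPM in A, B and C and 10.8, 30.2 and 5.45 in D, E and F, and like Igf2bp1 did not pass the edgeR test (log2 fold change -1.81 ± 0.62, adjusted p = 0.13). Igf2bp3 and Hmga1, which varied least, were nearest to Dleu2 (0.05) and Fzd3 (0.10).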

How the data were processed

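Per the labels and the methods of the study, the authors checked reads with FastQC 0.11.8, trimmed them with Trim Galore, aligned them to GRCm38 with HISAT2 2.1.0 and counted them per gene with featureCounts (Subread 1.6.3). They deposited raw counts per gene, not normalised, filtered or pooled. Strand and multimapping settings are not given in the sources used here.

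Columns are named by mouse, and 6 mice were matched to a genotype and sex through the study's Source Data, 3 per group. The remaining 1 column was not matched and was not used. Its name begins as those of the Ivl:BRAFV600E-SOX2LSL columns do, whereas the labels leave a place only for an Ivl:BRAFV600E tumour (4 and 3 samples), so its group is uncertain and 1 labelled Ivl:BRAFV600E tumour was not analysed here. Gene names were matched for 55154 of 55423 features. The 24433 genes that reached 5 reads in 1 tumour or more were compared in edgeR 4.0.16 (R 4.3.3; TMM, quasi-likelihood test, Benjamini-Hochberg threshold 0.05, prior count of 2), a test checked on simulated data. Standard errors were derived from the log2 fold change and its F statistic. DESeq2 1.42.0, limma 3.58.1 (voom with sample weights), other scalings and filters, covariates and leaving out each tumour were the alternatives. Figures were drawn with matplotlib 3.10.9 in Python 3.11.15.

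The members and gene lists were chosen with earlier results of these data known. All members, at most 6 called genes of a list, the genes that define a list and the 3 nearest profiles of each member may be named. Genes that stood out in tumour D, and the genes with 4 or more seed matches, were chosen after their values were seen. Intervals and floors cover counting error only. Some genes of the lists are counted with their list but not reported singly here.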

Additional observations from a re-analysis of the deposited data

How the results depend on the processing

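No paired analysis was possible because the columns are named by mouse and carry none of the replicate numbers of the labels. In place of 954 genes, 0 members and 23 genes of the lists past the edgeR test, DESeq2 gave 3653, 2 (Sall4 and Igf2bp1) and 57, limma voom gave 2142 genes, edgeR with no filter on low counts gave 1759 genes and 1 member (Sall4), sex as a covariate gave 228 genes and 11 list genes, and the skeletal muscle mean as a covariate gave 0 genes (553 at an unadjusted p below 0.05) and 0 list genes. That covariate lies close to genotype, which explains 94.2% of its variance, so the fit can hardly separate them. Leaving out each tumour gave 22 to 1575 genes, 0 to 1 members (Igf2bp1, without tumour E) and 0 to 34 list genes, with 22, 50 and 179 genes without A, B and C and 1575, 202 and 412 without D, E and F. Each such fit leaves 2 tumours in a group. The other scalings and filters left the 3 counts within 1.5 times.

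Fold changes reversed with the muscle covariate for Sall4 (-2.64), Lin28a (-4.17), Lin28b (-10.49), Igf2bp2 (-3.31), Hmga1 (-0.18) and Hmga2 (-8.12), and with limma voom, which gives each tumour a weight, for Lin28b (-0.52), Hmga1 (-0.33) and Hmga2 (-0.67). Over the fits that leave out a tumour they ranged from -0.56 to 2.29 for Lin28b, -0.19 to 0.06 for Igf2bp3, -0.36 to 0.42 for Hmga1 and -1.18 to 2.79 for Hmga2. The negative values of Lin28b and Hmga2 came from the fit without D, and Hmga1 was -0.04 without C. For Sall4 the range was 2.89 to 6.22, for Igf2bp1 -3.87 to -1.76 and for Igf2bp2 0.30 to 2.81, with no change of direction. Counts at or under the floor of 3 limit what can be said of Pou5f1, Nanog and Lin28a. The cause of these changes was not tested.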

Other observations

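Among the 12 genes with at least 4 let-7 seed matches, 9 are not members, and none of the 12 passed the edgeR test. Trim6, a ubiquitin ligase with 6 matches, was at 0 to 0.143 CPM in the Ivl:BRAFV600E tumours and at 1.37, 0.389 and 0.325 CPM in tumours D, E and F (log2 fold change 2.44 ± 0.73, standard error, adjusted p = 0.101). Ptafr, the receptor of platelet-activating factor with 4 matches, was at 0.887, 3.14 and 3.33 CPM in A, B and C and at 12.3, 7.32 and 5.13 in D, E and F (log2 fold change 1.73, adjusted p = 0.106). Hic2, a transcriptional repressor with 4 matches, was at 0.921 to 1.29 CPM in A to C and at 6.38, 1.68 and 1.81 CPM in D, E and F. Nr6a1, an orphan nuclear receptor of the early embryo and the gene with the most matches among the 12 (8), went the other way, at 12.2, 10.6 and 9.79 CPM in A, B and C and 5.85, 7.42 and 6.90 in D, E and F (log2 fold change -0.69, adjusted p = 0.079). The groups of these 4 genes did not overlap, nor did those of Zbtb37, D10Wsu102e and the member Igf2bp1. Those of the rest of the 12, Hmga2, Lin28b, Mcf2l, Nudt12 and Trim71, overlapped. Over all tested genes, 34.2% did not overlap. Mcf2l, with 7 matches, and D10Wsu102e, with 4, had log2 fold changes of 0.43 and 0.10.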
